A study of Canis lupus familiaris with 12 samples.

Results

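Matrix metalloproteases (MMPs) and their tissue inhibitors (TIMPs) were examined in RNA-seq data from dog hearts, with and without degenerative mitral valve disease (DMVD). Genes were taken as members when the name column of the gene tables held MMP2, MMP9, MMP11, MMP14, MMP16, MMP19, TIMP1, TIMP2, TIMP3 or TIMP4, or the matching canine UniProt name. Of these 10 genes, 4 were found: MMP16, MMP19, TIMP2 and TIMP4. The other 6, MMP2, MMP9, MMP11, MMP14, TIMP1 and TIMP3, were not analysed here. Each tissue's table lists 24223 genes, and 3 of the 4 members (MMP19, TIMP2 and TIMP4) were tested by the authors in both tissues.

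In all, 12 libraries were made from 8 dogs, of which 4 had DMVD and 4 were labelled normal. From the left ventricle, the main pumping chamber, 2 libraries were DMVD (Jack Russell Terrier, 5 years; Pomeranian, 9 years) and 4 were control (Beagle, 8 years; 3 Hound mixes, 3 years). From the mitral valve 3 libraries were DMVD (that Pomeranian; Beagles, 16 and 17 years) and 3 were control (that Beagle; Hound mixes, 3 years). By their labels' numbers, 1 DMVD dog and 3 control dogs gave both tissues. DMVD and control dogs differed in age and breed, so diagnosis cannot be told apart from either. The deposited tables give 1 value per group, read as FPKM, sequenced fragments corrected for gene length and library size. With no value per dog in use, neither the spread among dogs nor a library's depth can be given. A log2 fold change always puts DMVD over control, and ± marks its standard error (SE), worked out from the test statistic that the authors deposited. A gene was said to rise or fall where the authors' two-sided p, adjusted by Benjamini-Hochberg over all genes tested in that tissue, was under 0.05.

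MMPs are zinc-dependent proteases that cut collagens, basement membrane components and other matrix proteins, and most are made as inactive precursors. TIMPs are small secreted proteins that bind the active site of MMPs and block it. In a heart valve the balance between both bears on how collagen and elastic layers are renewed, and DMVD is a thickening of the leaflets in which these layers become disordered. Because much of this control acts on the protein, a transcript level does not give protease activity.

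The inhibitor TIMP2 was the most abundant of the 4 members in every group, followed in the valve by MMP19. TIMP2 stood at 10.8 FPKM in the control and 13.5 FPKM in the DMVD ventricle, and at 68.9 FPKM in the control and 84.1 FPKM in the DMVD valve, in the authors' deposited table. None of the 3 tested members passed in either tissue, against a background of 3.08% of 13788 tested genes in the left ventricle (1.92% higher and 1.16% lower in DMVD) and 0.419% of 14810 in the mitral valve (0.311% higher and 0.108% lower). At an unadjusted p under 0.05 the count was also 0 of 3 in both tissues, where 11.3% and 4.2% of all tested genes lay. All 3 had higher values in DMVD than in control in both tissues, as did 46.8% of all tested ventricle genes and 54.9% of all tested valve genes.

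**Figure D1:**
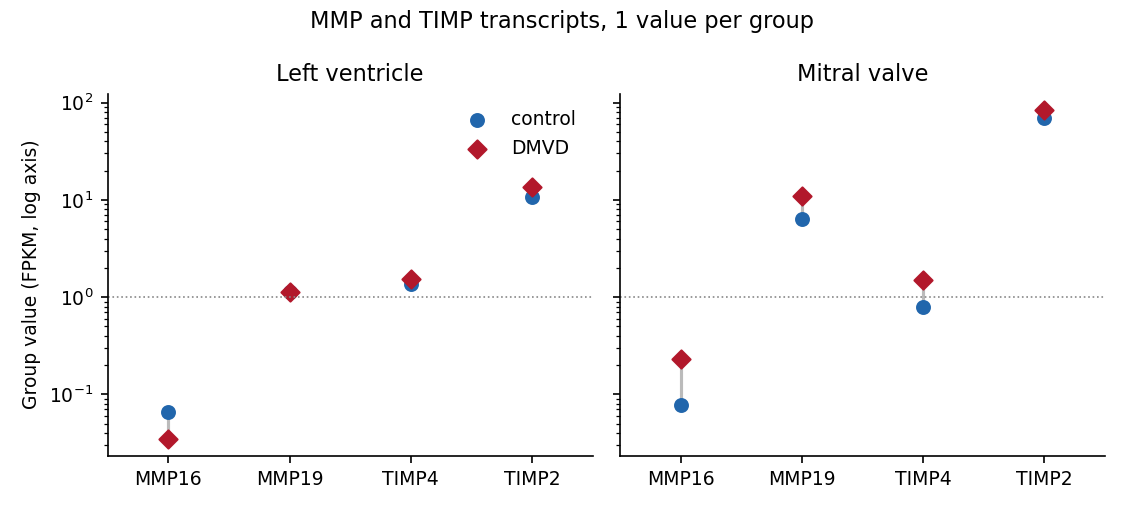
Group values of the 4 members in FPKM on a log axis, left ventricle at left and mitral valve at right, with 1 point per group (circles control, diamonds DMVD) and a dotted line at 1 FPKM. TIMP2 is the highest in all 4 groups, MMP19 lies near 1 FPKM in the ventricle and at 6.34 and 10.9 FPKM in the valve, and MMP16 stays under 1 FPKM in every group.

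TIMP2 is a broadly expressed inhibitor that also takes part, bound to a membrane-type MMP, in the activation of the MMP2 precursor. Its gene (ENSCAFG00000005528) is listed on chromosome 9 from 2521386 to 2534115 in CanFam3.1, and no other gene shares that locus in the tables. In the left ventricle its change was 0.32 ± 0.44 on the log2 scale, with an adjusted p of 0.962. The 95% interval of that change ran from -0.55 to 1.19, or from 0.685 to 2.29 as a fold. In the mitral valve the change was 0.29 ± 0.47 (adjusted p = 1.0 from the authors' p), with an interval from -0.63 to 1.21, or from 0.645 to 2.31 as a fold. Both intervals leave out a TIMP2 fold above 2.31 or below 0.645, but they rest on few libraries without values per dog. At this precision a log2 change under 1.41 in the ventricle or under 1.75 in the valve would not have passed.

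TIMP4 is the member of the inhibitor family best known for expression in the heart. Its gene (ENSCAFG00000005002) is listed on chromosome 20 from 6366810 to 6568547, a span shared with 1 unnamed gene, ENSCAFG00000004994. In the ventricle TIMP4 stood at 1.35 FPKM in control and 1.52 FPKM in DMVD, in the authors' deposited table. In the valve it stood at 0.782 FPKM in control and 1.502 FPKM in DMVD, the widest gap between diagnoses among the 3 tested members on the log2 scale. That valve change was 0.94 ± 1.10 (adjusted p = 1.0 from the authors' p), with an interval from -1.22 to 3.103 that takes in both a fall and a large rise. With 1 FPKM added to both groups the valve change of TIMP4 was 0.49, below the 0.70 of MMP19. The ventricle change was 0.17 ± 0.68 (adjusted p = 1.0 from the authors' p), with an interval from -1.17 to 1.51. The unnamed gene in the same span was low in all 4 groups, at 0.0960 FPKM or less in the ventricle and 0.456 FPKM or less in the valve. The sources used here do not say whether the counting used strand.

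MMP19 is a secreted protease that cuts basement membrane proteins and, unlike most MMPs, is expressed in many healthy tissues. Its gene (ENSCAFG00000000074) is listed on chromosome 10 from 215772 to 227718, a span shared with TMEM198. The control and DMVD ventricle held almost the same value, 1.12 and 1.13 FPKM in the authors' deposited table. The change there was 0.023 ± 1.227 (adjusted p = 1.0 from the authors' p), with an interval from -2.38 to 2.43, so equality of the values says little about the change. In the valve MMP19 stood at 6.34 FPKM in control and 10.9 FPKM in DMVD, in the same table. This change of 0.79 ± 0.94 (adjusted p = 1.0 from the authors' p) had an interval from -1.05 to 2.62, or from 0.484 to 6.14 as a fold. TMEM198, the gene in the same span, stood at 1.71 FPKM in the control and 3.73 FPKM in the DMVD ventricle. In the valve it stood at 6.51 FPKM in control and 9.26 FPKM in DMVD. TMEM198 had changes of 1.13 ± 0.47 in the ventricle (adjusted p = 0.247 from the authors' p) and 0.51 ± 0.53 in the valve (adjusted p = 1.0 from the authors' p). How far reads of MMP19 and TMEM198 were kept apart was not tested.

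MMP16 is a membrane-anchored protease able to activate the MMP2 precursor. Its gene (ENSCAFG00000008925) is listed alone on chromosome 29 from 33918483 to 34207979. It was the lowest member, at 0.0660 FPKM in the control and 0.0345 FPKM in the DMVD ventricle in the authors' deposited table. The valve values were 0.0779 FPKM in control and 0.232 FPKM in DMVD. The status column of both tables marks MMP16 as not tested, and no p is used for it. With 1 FPKM added to both groups its log2 change was -0.043 in the ventricle and 0.19 in the valve.

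The precision differed widely between the members. The median SE of tested genes averaging 5 FPKM or more was 0.47 in the ventricle and 0.52 in the valve. The SE of TIMP2 was 0.44 and 0.47, close to these medians. For genes with a mean of 1 to 5 FPKM the medians were 0.56 in the ventricle and 0.70 in the valve. The SE of MMP19 in the ventricle, 1.23, was above the median of its class there, and its SE of 0.94 in the valve was above the median for genes of at least 5 FPKM. TIMP4 had 0.68 in the ventricle and 1.10 in the valve, both above the median for 1 to 5 FPKM. At the largest p that passed, a gene with the SE of TIMP2 would have needed a log2 change of 1.41 in the ventricle and 1.75 in the valve. The same figure was 3.89 and 3.48 for MMP19, and 2.16 and 4.10 for TIMP4.

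**Figure D2:**
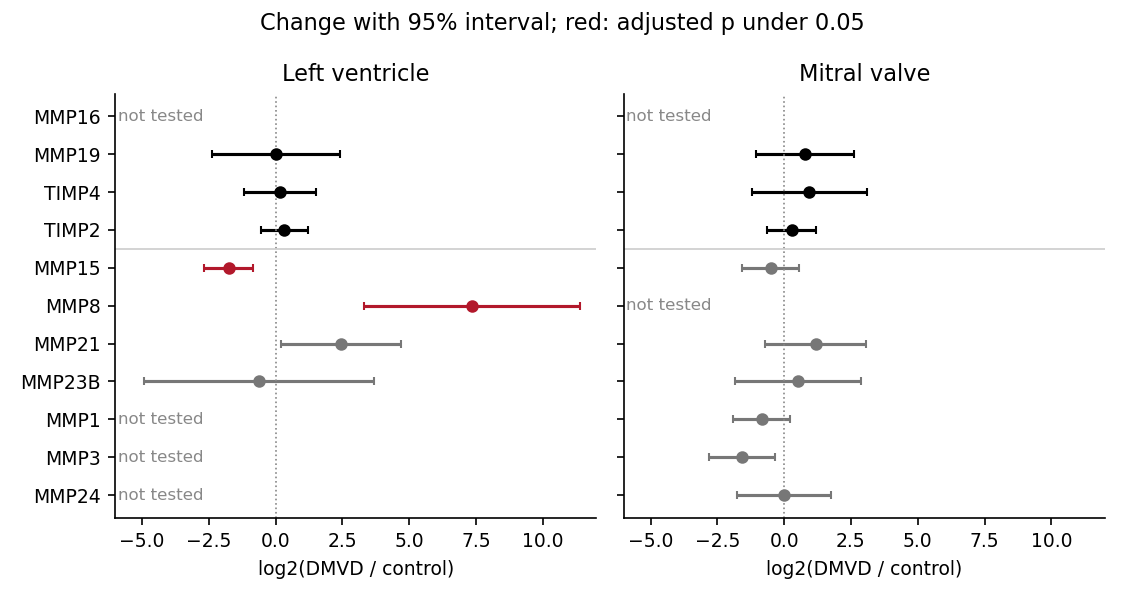
Log2 fold change, DMVD over control, with its 95% interval from the authors' statistic, for the members (above the grey line) and for the other MMPs tested in at least 1 tissue. The intervals of MMP19, TIMP2 and TIMP4 include 0 in both tissues, while MMP15 and MMP8 in the left ventricle, drawn in red, had an adjusted p under 0.05.

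**Figure D3:**
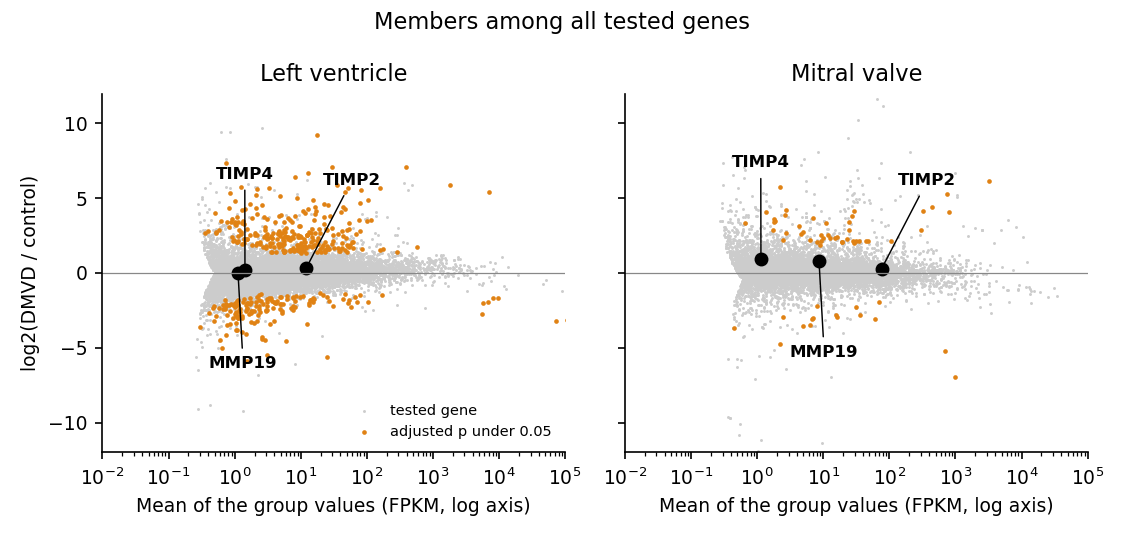
Log2 fold change against the mean of the DMVD and control values (FPKM, log axis) for tested genes of each tissue within the drawn range, with genes of adjusted p under 0.05 in orange and the 3 tested members in black. The members lie inside the grey mass of genes that did not pass, TIMP2 near 0.3 in both tissues and MMP19 and TIMP4 nearer to 1 in the valve.

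The change with DMVD was also compared between the tissues, as valve change minus ventricle change. The difference was -0.037 ± 0.646 for TIMP2, with a 95% interval from -1.30 to 1.23. For MMP19 it was 0.76 ± 1.54, with an interval from -2.26 to 3.79, and for TIMP4 it was 0.78 ± 1.30, with an interval from -1.77 to 3.32. None of the 3 passed (adjusted p = 1.0 for each, Benjamini-Hochberg over 13099 genes on a two-sided normal p from the SEs of the authors' statistics), where 0.107% of all genes did. The count at an unadjusted p under 0.05 was 0 of 3 as well, against 2.66% of all genes. The test treats the tissues as independent, although 4 of the dogs gave both.

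TIMP2 and MMP19 had much higher values in the valve than in the ventricle, and TIMP4 did not. Among control dogs TIMP2 was 6.41 times as high in the valve as in the ventricle, and MMP19 was 5.68 times as high. Among DMVD dogs these ratios were 6.25 for TIMP2 and 9.63 for MMP19. TMEM198, which shares the span of MMP19, also had higher values in the valve than in the ventricle in both diagnoses. TIMP4 had ratios of 0.578 in control and 0.990 in DMVD dogs. MMP16 had a ratio of 1.18 in control dogs and 6.73 in DMVD dogs, between values that were all under 1 FPKM. The tissues may have been normalised separately, so these ratios are set side by side without a test. The median gene above 1 FPKM in both tissues was itself shifted towards the valve by 0.31 on the log2 scale in control and 0.34 in DMVD dogs. After that shift was taken off, the log2 ratios in control dogs were 2.37 for TIMP2, 2.19 for MMP19, -0.076 for MMP16 and -1.10 for TIMP4. Those of TIMP2 and MMP19 were higher than 98.5% and 98.1% of the 11498 genes above 1 FPKM in both control tissues.

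**Figure D4:**
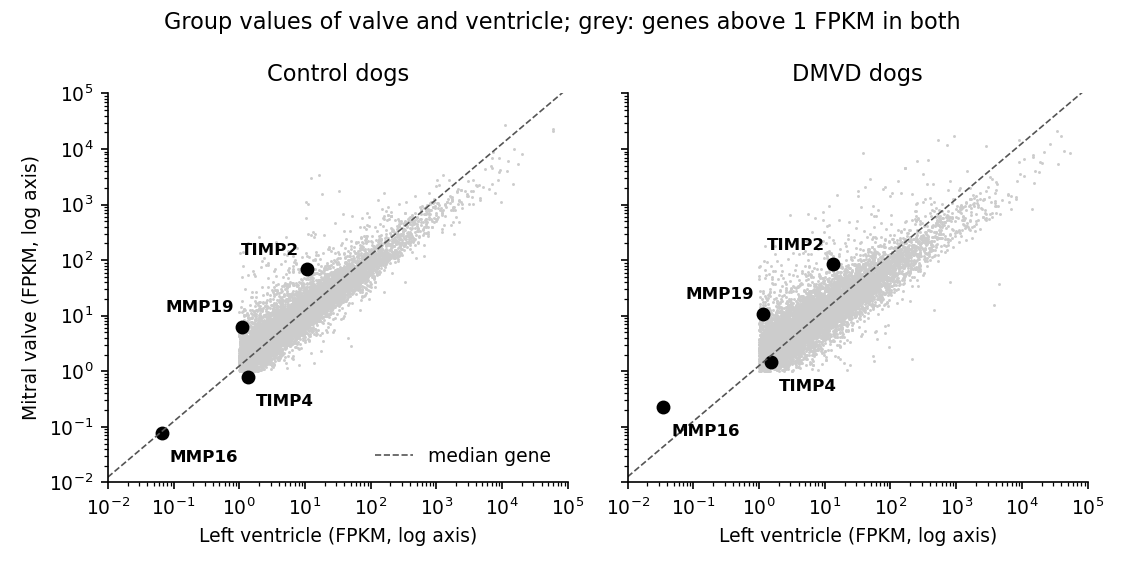
Group values in the mitral valve (vertical, FPKM, log axis) against those in the left ventricle (horizontal, FPKM, log axis) for control dogs at left and DMVD dogs at right, with genes above 1 FPKM in both tissues in grey, the 4 members in black and the shift of the median gene as a dashed line. TIMP2 and MMP19 lie well above the line in both diagnoses, while TIMP4 lies below it.

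Markers of cell types were also summed per group, without a test of the sums. In bulk tissue fewer cells of a type cannot be told apart from less RNA per cell. The summed FPKM of 7 named fibroblast and valve interstitial cell markers was 374.1 in the control and 389.4 in the DMVD ventricle, and 2157 in the control and 2422 in the DMVD valve. None of these markers was at 0, and 0 of the 6 tested passed in either tissue. The valve samples also held heart muscle transcripts, with 8 named cardiomyocyte markers summing to 18023 FPKM in control and 10534 FPKM in DMVD, none of them at 0. Of these 8, 7 had lower DMVD values in the valve and 1 passed, the light chain MYL3 (-5.19 ± 0.68, adjusted p = 2.64e-10 from the authors' p). In the ventricle the same markers summed to 19052 FPKM in control and 17737 FPKM in DMVD. MYH7 was listed at 0 in the control ventricle, under a status that marks too many reads. The DMVD sum holds 1637 FPKM of MYH7, so the ventricle sums do not cover the same markers. Of the 7 tested there 1 passed, the natriuretic peptide NPPA, which rose (1.95 ± 0.53, adjusted p = 0.0125 from the authors' p). NPPA stood at 12.4 FPKM in the control and 48.0 FPKM in the DMVD ventricle. In the valve samples it was far higher, at 2984 FPKM in control and 2878 FPKM in DMVD, and did not pass. Macrophage and monocyte markers, 6 named and none at 0, summed to 68.1 FPKM in the control and 212.4 FPKM in the DMVD valve, and to 29.6 and 73.8 FPKM in the control and DMVD ventricle, and 1 of 6, C1QB, rose in each tissue. Red cell markers, 4 named, summed to 62.6 FPKM in the control and 3604 FPKM in the DMVD ventricle, where 4 of 4 rose, and to 35.8 and 608.2 FPKM in the control and DMVD valve, where HBA alone rose and HBM was listed at 0 in control. Of 6 endothelial markers, none at 0, VWF and ROBO4 rose in the ventricle (sums of 80.5 FPKM in control and 159.9 FPKM in DMVD) and 0 passed in the valve (71.1 and 164.6 FPKM). Both tested adipocyte markers, PLIN1 and CIDEC, fell in the ventricle (3 named, 8.02 FPKM in control and 0.638 FPKM in DMVD, none at 0) and 0 of 2 passed in the valve (43.1 and 12.1 FPKM). No tested marker of smooth muscle and myofibroblasts, lymphocytes or cartilage passed in either tissue. Of 4 tested mast cell markers CPA3 fell in the ventricle (-2.55 ± 0.66, adjusted p = 0.00702 from the authors' p), and 0 of 2 passed in the valve. The part of these cell types in the values of TIMP2, MMP19 and TIMP4 was not tested.

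Of the named TIMPs TIMP2 was by far the higher in each group, and of MMP16 and MMP19 it was MMP19. TIMP2 made up 88.8% of the summed TIMP2 and TIMP4 values in the control ventricle, 89.9% in the DMVD ventricle, 98.9% in the control valve and 98.2% in the DMVD valve. MMP19 made up 94.4%, 97.0%, 98.8% and 97.9% of the summed MMP16 and MMP19 values in the same order. Per length, TIMP2 was 9.63 times as high as MMP19 in the control ventricle and 11.9 times in the DMVD ventricle. The ratio of TIMP2 to MMP19 was 10.9 in the control valve and 7.70 in the DMVD valve. These are ratios of single group values without an error, and they leave out the 6 members not analysed here and the other MMPs. The 11 other MMPs named in the tables summed to 11.9 FPKM in the control and 6.94 FPKM in the DMVD ventricle, and to 43.5 FPKM in the control and 34.0 FPKM in the DMVD valve, more than MMP19 in each group. TIMP2 exceeded TIMP4 by 7.95 times in the control and 8.88 times in the DMVD ventricle, and by 88.1 and 56.0 times in the control and DMVD valve.

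By rank among the genes tested in its tissue, TIMP2 was higher than 70.3% of genes in the control and 73.4% in the DMVD ventricle, and than 92.7% and 93.8% in the control and DMVD valve. MMP19 was higher than 15.9% and 19.2% of genes in the control and DMVD ventricle, and than 52.2% and 65.2% in the control and DMVD valve. TIMP4 was higher than 19.7% and 24.6% in the control and DMVD ventricle, but than only 8.80% and 16.1% in the control and DMVD valve. These ranks are within a tissue, so any separate normalisation of the tissues does not enter them. They are taken over different sets, 13788 tested genes in the ventricle and 14810 in the valve, which limits comparing them between tissues.

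Of 16 other MMPs listed for comparison, 11 were named in the tables. In the left ventricle 4 of them were tested, of which MMP8 rose, MMP15 fell and 2 did not pass. Of all genes tested there 3.08% passed. An unadjusted p under 0.05 was found for 3 of the 4, beside 11.3% of all tested genes. Among these 3, MMP21 did not pass (2.44 ± 1.15, adjusted p = 0.356 from the authors' p). It stood at 0.123 FPKM in control and 0.669 FPKM in DMVD, and its change became 0.57 with 1 FPKM added. MMP15, a membrane-type protease, fell by 1.76 ± 0.47 on the log2 scale (adjusted p = 0.00873 from the authors' p), from 9.50 FPKM in control to 2.80 FPKM in DMVD in the authors' deposited table. The neutrophil collagenase MMP8 had 1.48 FPKM in DMVD and 0.00912 FPKM in control, a log2 change of 7.34 ± 2.06 (adjusted p = 0.0163 from the authors' p) that became 1.30 with 1 FPKM added to both groups. Beside it, all 5 neutrophil markers tested in the ventricle, MMP8 among them, rose. The 7 named summed there to 377.9 FPKM in DMVD and 14.2 FPKM in control, none at 0. Of 4 neutrophil markers tested in the valve S100A9 alone rose (3.62 ± 0.97, adjusted p = 0.0466 from the authors' p). The 7 named summed to 43.6 FPKM in the DMVD and 8.65 FPKM in the control valve, 1 being at 0 in control. MMP8 was not tested in the valve, at 0.159 FPKM in DMVD and 0.00696 FPKM in control. The part of neutrophils in the value of MMP8 was not tested. In the valve 6 of the other MMPs were tested and 0 passed (beside 0.419% of all tested genes). Of these, 1 had an unadjusted p under 0.05, the stromelysin MMP3 (-1.57 ± 0.62, adjusted p = 0.620), at 13.9 FPKM in control and 4.67 FPKM in DMVD in the authors' deposited table. MMP1, the interstitial collagenase, had 9.20 FPKM in the control valve and 5.12 FPKM in the DMVD valve (-0.85 ± 0.55). MMP23B had 11.1 and 15.9 FPKM (0.52 ± 1.21), and its listed span is shared with another gene. How far reads of MMP23B and that gene were kept apart was not tested. MMP19 was lower than MMP3, MMP23B, MMP1 and MMP15 in the control valve, and lower than MMP23B alone in the DMVD valve.

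Wider lists, 7 in all with the other MMPs, held proteases and their regulators, but also matrix substrates, inducers and transcription factors. They were chosen with earlier results of these data known. Together they had 73 members tested in the ventricle, of which 11 rose and 2 fell (17.8%, beside 3.08% of all tested genes). Of the 11 that rose, 6 were inducers or transcription factors and 1 was a substrate. An unadjusted p under 0.05 was found for 22 of the 73 (beside 11.3% of all). In the valve 74 were tested, of which 0 passed (beside 0.419% of all) and 16 had an unadjusted p under 0.05 (beside 4.2% of all). The median change was 0.20 in the ventricle and 0.36 in the valve, beside -0.041 and 0.047 over all tested genes. Of 16 tested ADAM and ADAMTS genes in the ventricle ADAMTS9 rose (3.79 ± 0.46), ADAMTS7 fell (-2.04 ± 0.44) and 14 did not pass. Of 4 plasminogen activation genes the urokinase receptor PLAUR (4.11 ± 0.60) and the protease inhibitor SERPINE2 (2.59 ± 0.47) rose. Of 14 inducers and transcription factors 6 rose, among them the transcription factors JUNB (2.60 ± 0.45), FOSL2 (3.01 ± 0.57), EGR1 (2.40 ± 0.49) and ETS2 (1.84 ± 0.42). VCAN was the 1 of 16 matrix substrates to rise (2.29 ± 0.45), and 0 of 10 further MMP regulators and 0 of 9 lysosomal and neutrophil proteases passed in the ventricle.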

How the data were processed

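RNA was sequenced as TruSeq libraries per the labels' protocols. The submitters' processing notes name cutadapt, Bowtie, TopHat and the build CanFam3.1; the sources used here do not name the program behind the gene values. Per the file headers, each table holds 1 value per group, read as FPKM, the authors' log2 fold change (control over DMVD), their test statistic, a score of opposite sign, and their unadjusted p-value, with a placeholder where a group is at 0; all were deposited by the authors. The ratio was recomputed as DMVD over control. Each SE was had by dividing the log2 fold change by that statistic, because the deposited p matched a two-sided normal p within 2.84e-06. Because the tables hold group values, the authors' test stood in for a fit over libraries, and no replicate could be left out. Benjamini-Hochberg adjustment ran over all tested genes of a tissue. Intervals are 95% normal intervals. Of 197 listed genes 150 were named in the tables, 8 UniProt names being translated by hand. The steps were also run on simulated effects drawn with the real SEs, which cannot test those SEs, the shared dogs or the shared spans. Members and lists were chosen with earlier results of these data known. Named genes were the 4 members and up to 4 genes of smallest p among those that passed in each of the 7 wider lists. MMP3, MMP1, MMP21, MMP23B, TMEM198 and the cell type markers named were added after their values were seen. Positions are printed as listed, and the sources used here do not say from which number they are counted. The work used scipy 1.17.1, pandas 2.3.3, numpy 2.4.6 and matplotlib 3.10.9 under Python 3.11.15.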

Additional observations from a re-analysis of the deposited data

How the results depend on the processing

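Under 5 alternatives (filters at a mean of 1 and of 5 FPKM, centring on the median gene, adjustment over both tissues, Benjamini-Yekutieli), 0 of the tested members passed in either tissue, and MMP19, TIMP2 and TIMP4 kept the sign of their change wherever they were still tested. The filter at 5 FPKM left 1 member in the ventricle and 2 in the valve. Calls over all genes moved from 425 in the ventricle to 224 at 5 FPKM and 221 with Benjamini-Yekutieli, and from 62 in the valve to 98 over both tissues and 15 with Benjamini-Yekutieli. For the difference between tissues, 14 became 5 with Benjamini-Yekutieli and 150 at a correlation of 0.5 between tissues, with 0 members each time. With Benjamini-Yekutieli MMP15 and MMP8 no longer passed (adjusted p = 0.0883 and 0.165, from the authors' p). Divided by the median gene, the log2 control ratios of valve to ventricle went from 2.68 to 2.37 for TIMP2, 2.51 to 2.19 for MMP19, -0.79 to -1.10 for TIMP4 and 0.24 to -0.076 for MMP16. Without TIMP2 the TIMP sums in FPKM fell to 1.52 and 1.35 in the DMVD and control ventricle and 1.502 and 0.782 in the valve; without MMP19 the MMP sums fell to 0.0345, 0.0660, 0.232 and 0.0779 in that order. With 1 FPKM added, log2 changes in the ventricle were 2.96 for ADAMTS9, 3.30 for PLAUR, 2.32 for FOSL2 and -1.60 for ADAMTS7. No paired analysis was possible because the tables hold 1 value per group, and for the same reason no library was left out in turn. The unknown depth and the absence of values per dog limit every value of MMP16.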
